A study of Mus musculus with 10 samples.

Results

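Gene ends with a short but constant patch of the histone mark H3K4me3 (histone H3 trimethylated at lysine 4) were examined in CA1 hippocampal neurons. A gene end entered the set when peaks touched its window in all 8 libraries and covered fewer than 800 bp of that window in each of them. The window ran 2 kb to either side of the gene end, 4001 bp in all, and for each autosomal protein-coding gene the better covered of its 2 ends was taken as the promoter. These criteria gave 509 narrow promoters among 20665 autosomal promoters (2.46%), or 3.89% of the 13096 promoters with a peak in all 8 libraries. The remaining 12587 promoters marked in all 8 libraries served for comparison. Members were thus selected on covered length in all 8 libraries, so its level in members, and how it compares with other promoters, is described below without a test. The difference between the 2 groups of libraries, which the rule did not use, was tested at the end, where the limit of 800 bp in every library bounds how far a member could differ.

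Nuclei positive for NeuN, a neuronal nuclear protein, were sorted from dissected CA1 tissue and subjected to chromatin immunoprecipitation and sequencing. 4 libraries came from mice labelled CamkdeltaC transgenic, which carry a CaMKIIδC transgene, and 4 from their littermate controls. All were from male mice aged 3 months. The promoter that drives the transgene is not given in the sources used here, and whether each library is a different animal is not stated, so the tests here weigh only the spread between libraries, which may be technical. A treatment text in the labels mentions the drug vorinostat, but no library carries a drug label.

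H3K4me3 sits on the nucleosomes around the start sites of active and poised genes. It is deposited by the SET1 and MLL methyltransferases, which are brought to unmethylated CpG dinucleotides through CXXC-domain proteins, so promoters in CpG islands usually carry wide H3K4me3. Promoters poor in CpG, such as those of many tissue-restricted or inducible genes, tend to carry little or narrow H3K4me3. In brain, wide domains of the mark are known at genes of neuronal identity.

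The promoter sequences illustrate how CpG content differed within the set. 9 were chosen, after their values were seen, from members whose annotated start lies in the window: 8 with 3 to 20 CpGs, and 1 with a neuropeptide promoter motif. They do not span the set, which ran from 0 CpGs (as in Fam169b and Olfr43) to 42 (Map4). They are RefSeq sequences on GRCm38.p6 (the mm10 coordinates), each with 250 bases before the start and 50 after it, printed along the transcribed strand. Every CpG dinucleotide is in capitals in the first 8. Zfp931 (a zinc finger gene, chr2:178078376-178078675, minus strand) holds 3 CpGs, and Oasl2 (an interferon-induced relative of the oligoadenylate synthetases, chr5:114896684-114896983, plus strand) also holds 3. Irf7 (the transcription factor that amplifies the type I interferon response, chr7:141266375-141266674, minus strand) holds 7. Cxcl10 (an interferon-inducible chemokine, chr5:92348840-92349139, minus strand) and Mcm10 (a factor for starting DNA replication, chr2:5012742-5013041, minus strand) hold 10 each. Ifih1 (a cytosolic sensor of double-stranded RNA, chr2:62646206-62646505, minus strand) holds 14 and Bub1b (a spindle checkpoint kinase, chr2:118597961-118598260, plus strand) holds 15. Slc6a3 (the dopamine transporter, chr13:73536497-73536796, plus strand) holds 20.
Zfp931: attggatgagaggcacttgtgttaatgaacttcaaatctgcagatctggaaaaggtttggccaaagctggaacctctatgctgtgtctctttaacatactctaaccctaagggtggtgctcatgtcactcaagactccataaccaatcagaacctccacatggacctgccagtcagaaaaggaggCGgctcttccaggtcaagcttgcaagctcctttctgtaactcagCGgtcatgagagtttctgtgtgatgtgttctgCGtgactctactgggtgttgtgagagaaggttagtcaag
Oasl2: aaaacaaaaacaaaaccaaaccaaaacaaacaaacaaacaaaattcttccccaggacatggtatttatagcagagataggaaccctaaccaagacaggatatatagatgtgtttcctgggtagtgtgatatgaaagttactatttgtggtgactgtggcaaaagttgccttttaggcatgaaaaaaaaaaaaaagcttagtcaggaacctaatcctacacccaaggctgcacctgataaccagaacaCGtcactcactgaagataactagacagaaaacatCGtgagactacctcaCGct
Irf7: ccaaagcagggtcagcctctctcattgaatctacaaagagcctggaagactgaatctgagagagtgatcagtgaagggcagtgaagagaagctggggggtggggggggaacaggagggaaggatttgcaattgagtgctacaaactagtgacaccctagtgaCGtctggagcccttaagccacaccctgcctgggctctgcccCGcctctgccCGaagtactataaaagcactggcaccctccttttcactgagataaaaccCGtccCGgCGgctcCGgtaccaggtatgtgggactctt
Cxcl10: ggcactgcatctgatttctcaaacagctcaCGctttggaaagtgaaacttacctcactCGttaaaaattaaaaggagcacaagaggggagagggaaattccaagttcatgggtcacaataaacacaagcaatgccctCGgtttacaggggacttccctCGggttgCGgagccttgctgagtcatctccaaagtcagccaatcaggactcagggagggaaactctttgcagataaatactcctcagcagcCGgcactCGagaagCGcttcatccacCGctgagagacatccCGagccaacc
Mcm10: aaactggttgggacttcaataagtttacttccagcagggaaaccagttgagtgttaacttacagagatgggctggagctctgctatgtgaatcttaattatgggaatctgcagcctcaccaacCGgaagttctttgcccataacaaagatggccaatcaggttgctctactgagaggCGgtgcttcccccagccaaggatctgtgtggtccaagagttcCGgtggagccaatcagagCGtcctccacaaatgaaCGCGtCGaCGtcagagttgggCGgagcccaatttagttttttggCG
Ifih1: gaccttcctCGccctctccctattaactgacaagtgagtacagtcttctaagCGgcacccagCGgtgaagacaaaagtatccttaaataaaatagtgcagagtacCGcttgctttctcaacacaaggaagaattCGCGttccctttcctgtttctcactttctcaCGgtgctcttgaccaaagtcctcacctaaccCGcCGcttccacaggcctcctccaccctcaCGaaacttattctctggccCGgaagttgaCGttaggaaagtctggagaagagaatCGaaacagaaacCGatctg
Bub1b: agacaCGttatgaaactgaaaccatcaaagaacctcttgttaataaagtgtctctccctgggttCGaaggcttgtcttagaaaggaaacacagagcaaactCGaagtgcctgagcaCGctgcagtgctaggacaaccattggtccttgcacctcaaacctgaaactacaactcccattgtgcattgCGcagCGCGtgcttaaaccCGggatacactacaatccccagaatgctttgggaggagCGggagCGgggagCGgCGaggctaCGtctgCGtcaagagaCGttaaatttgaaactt
Slc6a3: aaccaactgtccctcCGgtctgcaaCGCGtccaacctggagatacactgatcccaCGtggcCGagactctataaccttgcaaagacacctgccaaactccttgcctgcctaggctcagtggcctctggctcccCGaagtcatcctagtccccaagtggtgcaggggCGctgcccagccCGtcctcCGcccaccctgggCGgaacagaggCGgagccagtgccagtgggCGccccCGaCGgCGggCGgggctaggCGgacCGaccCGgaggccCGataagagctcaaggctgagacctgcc

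The promoter of Sst (somatostatin, the peptide of a major interneuron class, chr16:23890795-23891094, minus strand) is the textbook example of a cAMP response element, TGACGTCA, bound by CREB. That motif is in capitals here, and its first base lies 48 bp before the annotated start.
Sst: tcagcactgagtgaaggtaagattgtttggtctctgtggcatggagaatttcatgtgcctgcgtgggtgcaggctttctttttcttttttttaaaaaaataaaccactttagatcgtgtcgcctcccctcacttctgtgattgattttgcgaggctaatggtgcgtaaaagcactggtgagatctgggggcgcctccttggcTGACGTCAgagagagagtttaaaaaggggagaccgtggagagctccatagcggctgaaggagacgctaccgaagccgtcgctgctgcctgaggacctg

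CpG content, which the choice of members did not use directly, differed between the narrow and the other promoters. The observed-to-expected CpG ratio, which is the number of CpGs relative to that given by the C and G content of the same 300 bases, had a median of 0.47 over the 244 members whose own annotated start lay in the window. The 9192 other promoters marked in all 8 libraries had a median of 0.79, and the 2428 promoters without a peak in any library had one of 0.17. A ratio under 0.4 was found in 99 members (40.6%), against 885 of the other constant promoters (9.63%). A ratio of at least 0.6 was found in 76 members (31.1%), against 77.3% of the others. The 178 of these members whose peaks lay wholly inside the window had a median of 0.53, with 60 (33.7%) under 0.4. The 66 whose peaks ran past it had a median of 0.36, with 39 (59.1%) under 0.4. Both medians lay below that of the other constant promoters and above that of promoters without a peak. In only 28 of the 66 was the annotated start nearest to the median peak summit their own and within 500 bp of it. In the rest of the 66, the bases scored need not be those under the peak. The values over the 244 and the narrow shares that follow include the 66. Among promoters marked in all 8 libraries, the narrow share was 9.67% (35 of 362) at a CpG ratio under 0.2 and 10.3% (64 of 622) between 0.2 and 0.4. It was 5.43% (69 of 1271) between 0.4 and 0.6, 1.72% (48 of 2794) between 0.6 and 0.8, and 0.638% (28 of 4387) at 0.8 and over. Across these 9436 promoters, Spearman's rho between CpG ratio and covered length was 0.30, given as a description because genes are not independent replicates and all promoters share the same libraries.

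**Figure D1:**
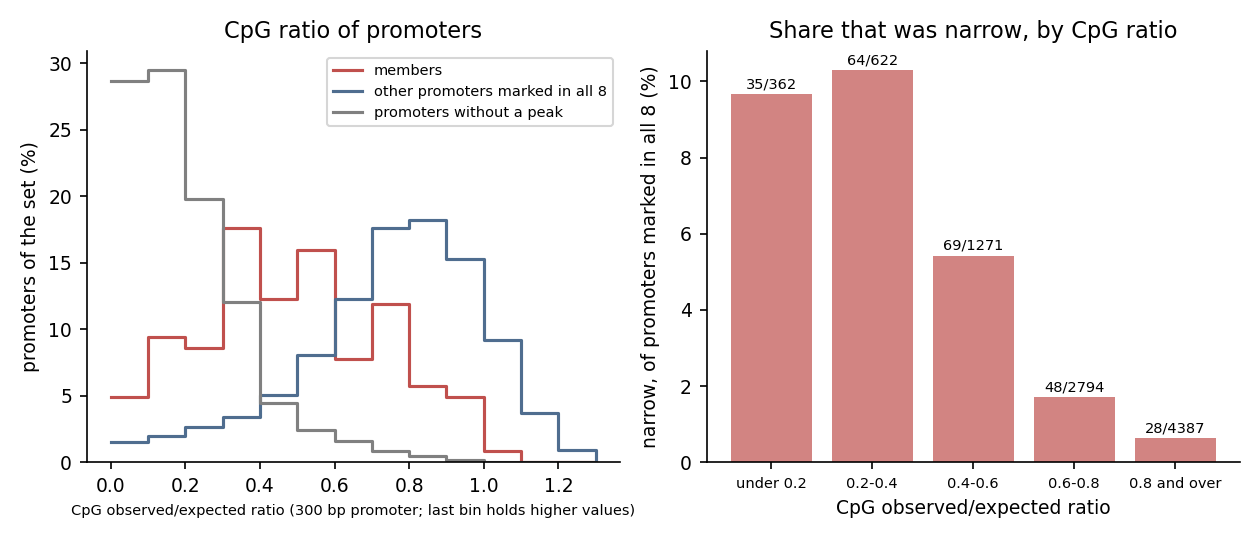
Left, the share of promoters (%) in each bin of the CpG observed-to-expected ratio for members with their own start in the window, for other promoters marked in all 8 libraries and for promoters without a peak. Right, the share of promoters marked in all 8 libraries that was narrow, by CpG ratio: 9.67% and 10.3% in the poorest bins and 0.638% in the richest. Both panels include members whose peaks ran past the window.

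Short promoter motifs were counted on both strands of the same 300 bases, and overlaps between motifs were not removed. The TATA box letters TATAAA occurred in 34 of the 244 members (13.9%), against 7.10% of the other constant promoters and 12.9% of all 13052 autosomal promoters with a sequence. It occurred in 21 of the 178 members with peaks inside the window (11.8%) and in 13 of the 66 with peaks past it (19.7%). Taking only a match on the transcribed strand that lay within the stretch from 50 to 11 bp before the start, around the usual place of a TATA box, the shares were 4.10% of members, 1.31% of the other constant promoters and 3.05% of all promoters. Irf7 was one of these, with TATAAA beginning 29 bp before its start. The AP-1 letters TGANTCA occurred in 9.84% of members, against 4.11% of the other constant promoters and 6.39% of all. They occurred in 10.7% of promoters with a peak in some but not all libraries and in 12.6% of those without a peak. TATAAA occurred in 23.1% and 29.8% of those sets, so neither motif was particular to members. GGGCGG, bound by SP1, occurred in 48.8% of members and 67.3% of the other constant promoters (52.9% of all), and CCGGAAG, bound by ETS factors, in 10.7% and 18.5% (13.9% of all). The letters of SP1 and of ETS factors each hold a CpG, so their shares are not separate from CpG content. Within the 178, the shares were 9.55% for the AP-1 letters, 51.7% for those of SP1 and 9.55% for those of ETS factors. CCAAT was at 38.1% in members and 39.0% in the other constant promoters (39.3% of all). TGACGTCA, shown above for Sst, occurred in 7 members (2.87%), against 3.57% of the other constant promoters and 2.68% of all. A match is only a run of letters in this window and does not show binding.

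Not every member was a promoter in the strict sense. An annotated start was known for 402 members. Of these, 297 had been chosen at the 5′ end of the gene and 105 (26.1%) at the 3′ end, against 7.07% at the 3′ end among the other constant promoters. The gene's own start lay in the window for 244 of the 402 (60.7%), against 91.2% of the others. Peaks lay wholly inside the window in all 8 libraries for 283 of the 509 members (55.6%, against 60.1% of the others). In 176 members a peak ran past the window edge in all 8 libraries, and in 50 in some. Counted over their whole length, the peaks of only 306 members stayed under 800 bp in every library. Peaks averaged over 1600 bp in 73 members and over 4000 bp in 6. The label of a narrow promoter could thus be shown for a core of 178 members, which had their own start in the window and peaks wholly inside it. A further 61 members had peaks wholly inside the window but no start in the promoter table, so they could not be placed. Of the 178, 6 were chosen at a 3′ end, and in 16 no base was covered in all 8 libraries. In 154 of these 178, the annotated start nearest to the median peak summit was their own and lay within 500 bp of it. 8 of the 178 also had at least 800 bp at a window centred on one of their own starts, among them Kcnab1, a potassium channel β subunit, with 2951 bp there.

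**Figure D2:**
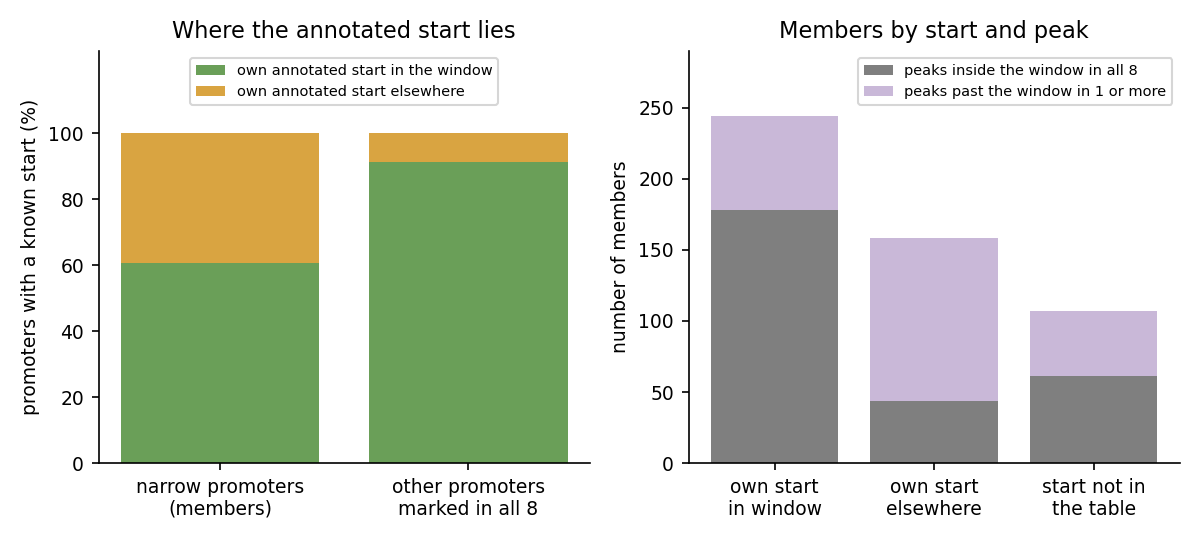
Left, members and other promoters marked in all 8 libraries whose own annotated start lay in the window or elsewhere (% of those with a known start). Right, the number of members by position of the start, split by whether the peaks lay inside the window in all 8 libraries: 178 members had their own start and contained peaks.

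The remaining members show what else meets the criteria. Among the 158 members whose own start lay elsewhere, 66 had a mean of at least 800 bp at such a start and 65 had no peak there. Rbfox3, which encodes NeuN and is the gene the nuclei were sorted by, entered through a window at chr11:118911597, its far gene end. Its peaks covered 673, 707, 610 and 657 bp of that window in the transgenic libraries and 582, 603, 689 and 603 bp in the control libraries. The same peaks averaged 4068 bp over their whole length, and no peak covered the start annotated for this gene in the promoter table. The window therefore held the edge of a broad domain. Orc4, an origin recognition subunit, Ppp1r37, a regulatory subunit of protein phosphatase 1, and Ddx56, a nucleolar RNA helicase, had gene ends 2668, 2306 and 2057 bp from their own starts, and those starts had a mean of 3049, 3012 and 1600 bp covered. Hif1a, the hypoxia-inducible transcription factor, was chosen at its 3′ end with a mean of 161 bp there and had 2249 bp at its own start (named after its values were seen). Tgfbr3l and Gm12657 were chosen at a 3′ end whose nearest annotated start was that of a neighbour, Snapc2 (417 bp from the summit) and Plaa (427 bp). Such members are narrow only as a gene end.

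Facts of the libraries bear on all covered lengths. The lists held 60388 to 102285 peaks in the transgenic libraries and 51903 to 66811 in the control libraries, and no reads are given, which leaves sequencing depth unknown. Every list had a smallest peak width of 200 bp. Transgenic library 1 held the most peaks and stood apart from the others on the first principal component of covered length. On the second component, control library 4 (6.03) lay within the range of the transgenic libraries (3.04 to 11.5). Control libraries 1, 2 and 3 lay at -11.9, -11.4 and -10.6. Libraries with many peaks on chromosome X (13023 to 31362, against 1145 to 1293 in the rest) were transgenic 1 and 4 and control 2 and 3, and no member lies on X. Of the neuron markers 14 of 14 autosomal genes had a peak in all 8 libraries, against 8 of 12 astrocyte, 5 of 13 oligodendrocyte lineage, 1 of 13 microglia and 2 of 10 endothelium markers. Among all autosomal promoters it was 13096 of 20665, a share close to that of the astrocyte markers.

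The 509 members had a median covered length of 474 bp, against 1777 bp in the other constant promoters. By library the median was 399, 496, 501 and 520 bp in the transgenic libraries and 431, 443, 474 and 506 bp in the control libraries. Transgenic library 1 gave the lowest value in 156 members and control library 1 in 115, so the 2 groups each held 1 library with shorter coverage. Just inside the limit stood Gas7 (a growth-arrest gene active in neurons) and Olfr406 (an olfactory receptor), each with a highest value of 798 bp, and Vmn2r12 (a vomeronasal receptor) with 797 bp. Gas7 had no start in the promoter table and peaks past the window in 7 libraries. The peaks of Olfr406 ran past the window in 4 libraries, and Vmn2r12 was chosen at its 3′ end. Just outside it stood Acaa1b (a peroxisomal thiolase), Agtr1a (an angiotensin II receptor) and Prim1 (the DNA primase catalytic subunit), each with a highest value of 800 bp. Acaa1b ranged from 246 to 713 bp over the other 7 libraries, so the limit separated promoters with like values.

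**Figure D3:**
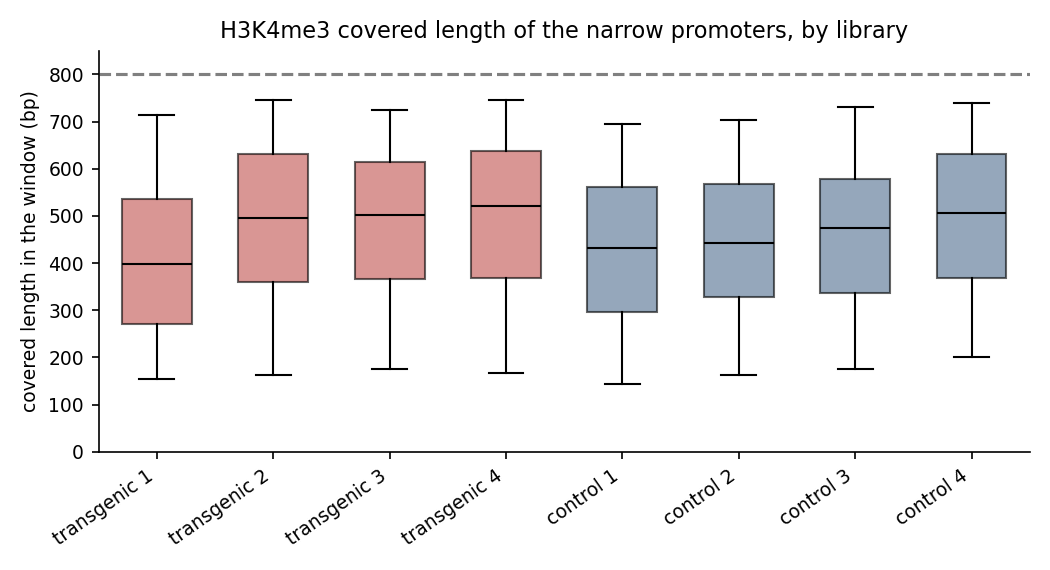
Covered length (bp) of the 509 members in each library. Boxes span the quartiles with the median as a line, whiskers the 5th to 95th percentile, and the dashed line is the limit of 800 bp; medians lie between 399 and 520 bp, with transgenic library 1 lowest.

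Extent varied between libraries, which is a description of the measure that chose the members. The SD of covered length over the 8 libraries had a median of 94.5 bp in members, against 161 bp in the other constant promoters. Relative to the shorter mean, the coefficient of variation of covered length over the 8 libraries had a median of 22.0% in members, against 9.16% in the other constant promoters. The bases covered in all 8 libraries made up a median of 39.6% of those covered in any, against 65.6% in the others. In 28 members no base was covered in all 8 libraries, among them Hif3a, a hypoxia-inducible factor, and Corin, the protease that activates the atrial natriuretic peptide. The authors' fold enrichment, ranked within each list, put the strongest peak of a member at a median percentile of 72.2, against 90.8 for the others. Members with the weakest peaks were Hif3a (percentile 22.5), Scgb2b10 (a secretoglobin, 23.6), Skint1 (a selection gene for intraepithelial T cells, 26.3), Olfr694 (31.9) and Vmn2r12 (33.1). Skint1 and Vmn2r12 were chosen at a 3′ end, and Olfr694 had no start in the promoter table. The 5 strongest, Gm12657 (99.3), Ddx56 (99.1), Abhd16b (98.9), Orc4 (98.8) and Stx18 (a SNARE of the endoplasmic reticulum, 98.7), all had peaks that ran past the window in every library. Within the core of 178 members the median percentile was 66.4.

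Some members were almost the same in every library. Gm14295, a zinc finger gene model, had a coefficient of variation of 1.65% with a mean of 429 ± 7.72 bp in the transgenic libraries and 429 ± 7.55 bp in the control libraries (SD, n = 4 each). Zfp931 covered 479, 499, 490 and 488 bp in the transgenic libraries and 489, 490, 454 and 512 bp in the control libraries. The values of the 2 groups overlapped, and 454 bp were covered in all 8. Saa3, a serum amyloid A gene, had 736 to 768 bp in the transgenic libraries and 741 to 797 bp in the control libraries, at a 3′ end with peaks past the window. Hnrnph1, a splicing regulator, had 599 to 623 bp in the transgenic libraries and 569 to 625 bp in the control libraries, although its window edge clipped a wider peak with a mean of 1698 bp. At the other end, Sbsn (suprabasin, a protein of skin) varied most, with 104, 95, 297 and 41 bp in the transgenic libraries and 89, 12, 324 and 71 bp in the control libraries. Its start lay elsewhere, and the nearest annotated start was that of Tmem147 at 313 bp from the summit. The next most variable members were Dqx1 (86.2%), Carmil2 (85.5%), Fam169b (74.8%) and Xpo7 (a nuclear export receptor, 71.1%), all with peaks past the window in every library. The least covered members were of the same kind: Gm40365 with 17 or 18 bp in every library, Gm10461 with a mean of 65.3 bp, Gstp2 (a glutathione transferase) with 78.8 bp, Zfp59 with 83.1 bp and Fam169b with 90.6 bp.

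Genes of innate immunity stood among the members with their own starts. The list of interferon-inducible genes was drawn from symbol prefixes, such as Irf and Oas, rather than from known induction of each gene. Of its 24 genes marked in all 8 libraries, 4 were narrow (16.7%), against 3.89% over all promoters marked in all 8. Ifih1 covered 761, 741, 793 and 795 bp in the transgenic libraries and 699, 642, 685 and 795 bp in the control libraries. Irf7 covered 771, 691, 664 and 783 bp in the transgenic libraries and 596, 659, 638 and 691 bp in the control libraries. Ifih1 stayed between 642 and 795 bp and Irf7 between 596 and 783 bp, and their groups overlapped. Isg15, a ubiquitin-like modifier, was less even, with 479, 507, 524 and 767 bp in the transgenic libraries and 495, 273, 528 and 635 bp in the control libraries. The peaks of Isg15 ran past the window in 3 libraries. Oasl2, the remaining one and named beyond the 3 smallest p-values, covered 200, 433, 627 and 346 bp in the transgenic libraries and 200, 380, 434 and 249 bp in the control libraries. Its lowest values equal the smallest peak width in the lists.

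Cytokines, chemokines and their receptors gave 6 narrow promoters of 49 marked in all 8 libraries (12.2%). Cxcl10 covered 553, 440, 594 and 478 bp in the transgenic libraries and 496, 425, 428 and 415 bp in the control libraries, with overlapping groups. Tnfrsf10b, a receptor for the death ligand TRAIL, had a mean of 553 bp over the 8 libraries, and its start was not in the promoter table. Il4i1, an amino acid oxidase of immune cells, was chosen at its 3′ end, with a mean of 613 bp there and no peak at its own start. Its symbol, rather than its function, put it in the list. Among the genes of antigen presentation, named after their values were seen, H2-T23 had a mean of 476 bp and H2-T3 one of 579 bp at their own starts, with peaks inside the window.

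Interneuron markers gave 2 narrow promoters of 10 marked in all 8 libraries. The 10 together had a median covered length of 1252 bp. Sst covered 554, 413, 605 and 413 bp in the transgenic libraries and 474, 415, 477 and 351 bp in the control libraries. Pvalb, the calcium-binding protein of fast-spiking interneurons, covered 294, 149, 239 and 202 bp in the transgenic libraries and 200, 198, 189 and 240 bp in the control libraries. Its peaks ran past the window in every library, and the widest window at one of its starts held 697 bp. With only peaks at a −log10 q of at least 5, the mean was 326.5 bp for Sst, against 462.8 bp with all peaks. For Pvalb it was 165.2 bp, against 213.9 bp. In bulk sorted nuclei, fewer nuclei of a type and less mark per nucleus cannot be told apart. No member was found among 27 genes of the glutamatergic synapse or 22 immediate early genes marked in all 8 libraries, whose median covered lengths were 2268 and 2856 bp. Of the neuron markers, Rbfox3 was the 1 member, through the domain edge described above.

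Other neuropeptide genes, named after their values were seen, also met the criteria. Spx, which encodes spexin, had a mean of 572 bp and Nmu, neuromedin U, one of 395 bp at their own starts. Nmu was uneven, with 228, 200, 581 and 631 bp in the transgenic libraries and 546, 395, 200 and 380 bp in the control libraries. Cartpt, the precursor of the CART peptide, was chosen at its 3′ end, 2200 bp from its own start, with a mean of 377 bp. Its peaks ran past that window in every library, and their median summit lay 27.5 bp from its own start. A window centred on that start held 934 bp, so Cartpt was narrow only as a gene end. Slc6a3, a marker of dopamine neurons, covered 443, 694, 717 and 781 bp in the transgenic libraries and 596, 362, 646 and 490 bp in the control libraries, with only 93 bp shared by all 8.

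**Figure D4:**
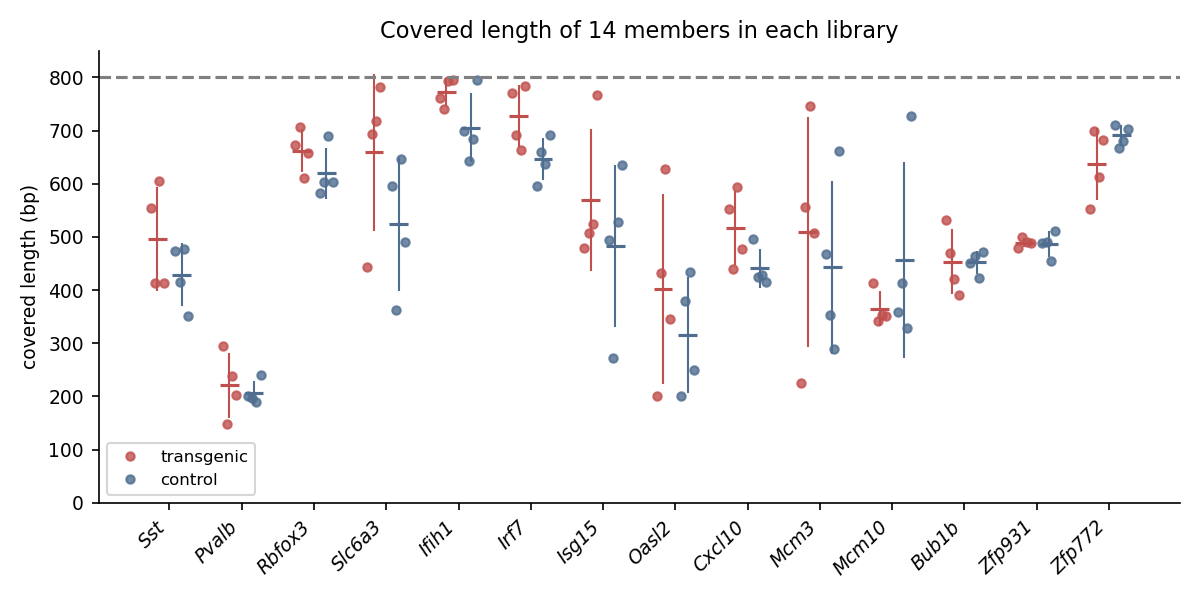
Covered length (bp) of 14 members in each of the 4 transgenic (left of each pair) and 4 control libraries, with the mean as a bar and the SD as a line; the dashed line is the limit of 800 bp. The groups overlap for all 14, and Zfp931 is nearly level while Mcm3 and Oasl2 spread widely.

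Genes of the cell cycle and of cilia were represented as well. Of 48 cell division genes marked in all 8 libraries, 3 were narrow (6.25%), all at their own starts. Mcm3, a subunit of the replicative helicase, covered 225, 557, 747 and 508 bp in the transgenic libraries and 468, 353, 289 and 661 bp in the control libraries. Mcm10 covered 413, 341, 354 and 352 bp in the transgenic libraries and 358, 414, 328 and 727 bp in the control libraries, where library 4 alone was above 414 bp. Bub1b covered 532, 470, 421 and 391 bp in the transgenic libraries and 451, 465, 423 and 471 bp in the control libraries. Tk1, the thymidine kinase of dividing cells, shared its window with Afmid, a formamidase of tryptophan breakdown (a pair named after its values were seen), and the 638.6 bp mean of both came from the same peaks. Cilium and flagellum genes, a list drawn from gene symbols, gave 9 members of 78 (11.5%), not all at their own starts. Tekt5, a tektin of sperm flagella, covered 707, 763, 795 and 757 bp in the transgenic libraries and 505, 792, 652 and 730 bp in the control libraries, at its own start. Cfap54 and Spag1, genes of motile cilia, had peaks past the window in every library and no start in the promoter table, with means of 572 and 544 bp. Besides Tekt5, only Cfap58, Cfap97d1 and Dnah7c, named after their values were seen, had their own start in the window. The peaks of Cfap97d1 ran past the window in every library. Boll, a germ-line RNA-binding gene, was the 1 member among 12 germ line genes marked in all 8, with a mean of 467 bp.

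Large gene families were close to the overall share. Zinc finger genes gave 14 of 409 (3.42%), solute carriers 9 of 233 (3.86%), the Tmem series 5 of 169 (2.96%) and ion channels 5 of 96 (5.21%). Zfp660 and Zfp951 had means of 501 and 443 bp, and Zfp772 had 552, 699, 613 and 683 bp in the transgenic libraries and 711, 668, 681 and 703 bp in the control libraries. Slc25a48, a mitochondrial carrier, had a mean of 414 bp at its own start. Slc8a2, a sodium-calcium exchanger of neurons, had a mean of 495 bp in its window but 2729 bp at its own start. Tmem98, Tmem150b and Tmem232 had means of 501, 406 and 442 bp, the last with no peak at its own start. Kcnj14, an inward rectifier potassium channel, and Kcne3, a channel β subunit, had means of 402 and 272 bp. The start of Kcnj14 was not in the promoter table, and the peaks of Kcne3 ran past the window in every library. Olfactory, vomeronasal and taste receptors gave 8 of the 147 marked in all 8 libraries (5.44%), while 867 of the 1511 autosomal receptors had no peak in any library. Olfr95 covered 527, 580, 574 and 680 bp in the transgenic libraries and 365, 456, 549 and 579 bp in the control libraries.

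Housekeeping complexes held no member. None of 79 cytosolic ribosomal protein genes, 77 mitochondrial ribosomal protein genes, 85 genes of the respiratory chain and ATP synthase, 41 proteasome genes or 47 DNA repair genes marked in all 8 libraries was narrow. Their median covered lengths were 1943, 1641, 1980, 1758 and 1528 bp. Over all promoters marked in all 8 libraries, 3.89% were narrow. None of the constant promoters of astrocyte (8), oligodendrocyte lineage (5), microglia (1), endothelium (2) or cardiomyocyte (1) markers was narrow either, nor were the 3 constant promoters of developmental transcription factors.

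Members could share peaks. Windows of 38 members overlapped in 19 pairs, so the 509 members stand for 490 separate stretches. H2ac4 and H3c2, replication-dependent histone genes named after their values were seen, had identical values, with 235, 565, 579 and 725 bp in the transgenic libraries and 536, 507, 328 and 600 bp in the control libraries. Members were found on all 19 autosomes, as 2.35% of the constant promoters of chromosome 10 at the low end and 5.52% of those of chromosome 14 at the high end.

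Covered length was then compared between transgenic and control libraries with limma over all 14753 promoters tested, on log2(bp + 100) after centring each library, a scale that understates the change of thinly covered promoters. None of the 509 members passed an adjusted p of 0.05, nor did any tested promoter (0%). At an unadjusted p under 0.05, 3 members were higher in transgenic libraries (0.589%, against 2.8% of all tested promoters) and 0 were lower (against 1.32%). With limma's ordinary variances, neither trended nor robust, 20 members were higher and 11 lower at that p. In that fit, 589 of all 14753 tested promoters were below it in either direction. The share of members at an unadjusted p thus depended on the variance model. The 2 groups did not overlap in 16 members higher in transgenic libraries (3.14%, against 1.86% of all tested) and 5 lower (0.982%, against 0.481%). On the log2 scale, where a given number of bases weighs more at a short stretch, the median standard error was 0.26 in members, against 0.09 over all promoters tested. The 95% interval of the difference stayed within 1.5-fold either way in 148 members (29.1%), against 81.4% of all promoters tested. The median log2 difference over members was 0.0033, with 261 above and 248 below 0, against -0.0079 over all promoters tested. Under quantile normalization it was -0.17, with 91 above and 418 below 0. Without transgenic library 1, 0 members passed and the median was 0.021. Within the 4 libraries with many X peaks the median was -0.023 and within the 4 with few it was 0.022, again with 0 members past the threshold.

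The smallest p among members was that of Vmn2r12. It covered 797, 790, 598 and 322 bp in the transgenic libraries and 200, 214, 200 and 202 bp in the control libraries, a log2 difference of 1.18 ± 0.34 (SE), with a limma adjusted p of 0.93. Every transgenic library was above every control library, whose values sat at the smallest peak width, but the peaks lay at the 3′ end of the gene, 11486 bp from the nearest annotated start. Corin, an enzyme known from heart muscle, covered 495, 502, 583 and 507 bp in the transgenic libraries and 200, 200, 584 and 200 bp in the control libraries, a log2 difference of 0.73 ± 0.34. Control library 3 was the highest of all 8, so the groups overlapped. Gm20385, Pter (a phosphotriesterase-related enzyme) and Lypd3 (a surface protein of epithelia) were higher in all 4 transgenic than in all 4 control libraries, with means of 599, 609 and 616 bp in transgenic libraries and 375, 401 and 414 bp in control libraries. Their log2 differences were 0.53 ± 0.23, 0.48 ± 0.22 and 0.47 ± 0.21. The peaks of Lypd3 ran past the window in every library.

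In the other direction, Ptgis, the prostacyclin synthase, covered 579, 285, 200 and 220 bp in the transgenic libraries and 551, 760, 348 and 651 bp in the control libraries, a log2 difference of -0.75 ± 0.37. Transgenic library 1 lay within the range of the controls. Rhbg, an ammonium transporter, covered 250, 551, 505 and 584 bp in the transgenic libraries and 717, 653, 527 and 716 bp in the control libraries, a log2 difference of -0.46 ± 0.24. Lmx1b, a homeobox factor of dopamine and serotonin neurons, covered 274, 430, 401 and 380 bp in the transgenic libraries and 439, 644, 627 and 434 bp in the control libraries, at its 3′ end with no peak at its own start. Its groups did not overlap, and the log2 difference was -0.45 ± 0.25. Cracr2a (a calcium sensor of T cells) and Fhl3 (a LIM-domain protein of muscle) had log2 differences of -0.41 ± 0.22 and -0.35 ± 0.19, with means of 455 and 512 bp in transgenic libraries and 630 and 662 bp in control libraries. Limma's adjusted p was 1.00 for each of the 9 members other than Vmn2r12. Ptgis and Rhbg had no start in the promoter table, and Fhl3 was chosen at its 3′ end.

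**Figure D5:**
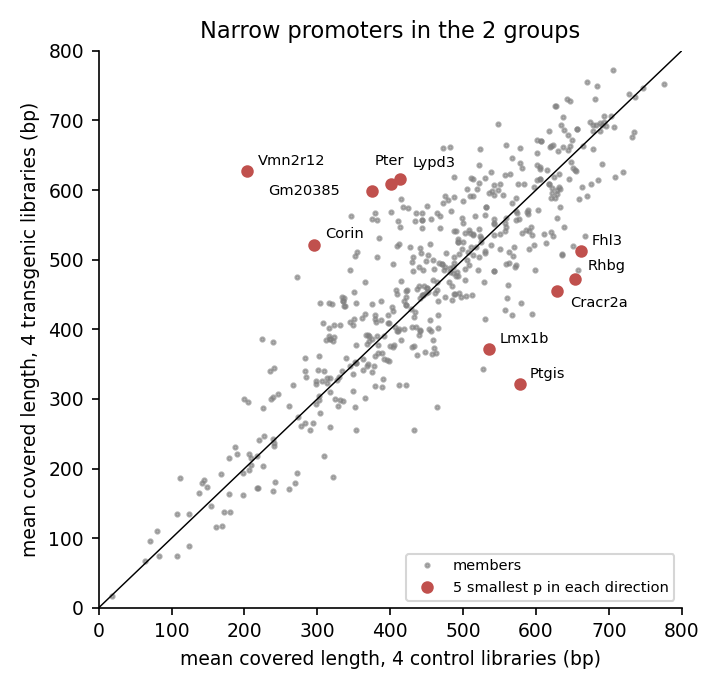
Mean covered length (bp) of each of the 509 members in the 4 transgenic libraries (vertical axis) against the 4 control libraries (horizontal axis), with the line of equal values and the 5 members of smallest p in each direction named. Members scatter on both sides of the line, and none passed an adjusted p of 0.05.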

How the data were processed

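H3K4me3 was mapped in 8 libraries, 4 transgenic and 4 control, and 2 input samples were not analysed here. The authors deposited 1 peak list per library on mm10, in the layout of MACS2. Each deposited line gives a peak's position, its score, its fold enrichment, 2 significance values on a −log10 scale (p-value and q-value) and the summit's offset, all set by the authors. Of these, fold enrichment ranked peaks inside one list, and the q-value set alternative thresholds. The submitters' processing notes name MACS2, limma and DiffBind with no version, and Bowtie2 2.0.2, FastQC 0.11.5, deepTools 3.0.1 and SAMtools 1.3.1, with roles not given in the sources used here. Reads were single 50-bp ends, per the labels' protocols. A deeper or cleaner library gives more and wider peaks, and no depth is known.

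Peaks within a library were merged, and the bases they covered in each 4001-bp window were counted. Start sites, strands and sequences came from RefSeq on GRCm38.p6, which matched 402 of the 509 members. A promoter was fitted when 4 or more libraries had a peak there, with limma 3.58.1 in R 4.3.3 (trended, robust) on log2(bp + 100). Each library was first centred by its median across the constantly marked promoters, with Benjamini-Hochberg adjustment over all 14753. All 509 members passed that filter. The script was checked on simulated data that gave every promoter the same spread, smaller than that seen in members. The check therefore does not show how readily a change in a member would be found.

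The members and the gene lists were chosen with earlier results of these data known. Lists of large families and of ribosomal, respiratory, proteasome, interferon, cytokine and cilium genes were drawn from symbol prefixes. They can therefore hold genes of another function. The remaining lists were of single named genes. Members named were the 5 of smallest p in each direction, the 5 lowest and 5 highest by mean, by coefficient of variation and by fold-enrichment percentile, the 3 nearest each side of the limit, and the 3 of smallest p in each gene list; others are said to be named after their values were seen. Alternatives changed the limit, the window, the peak threshold, the number of libraries, the scaling, the pseudocount, the variance model and single libraries.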

Additional observations from a re-analysis of the deposited data

Results flagged for a closer look

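In 15 of 134 groups of 4 libraries, for the members named by rule, the highest or lowest covered length lay far from the other 3 by Dixon's criterion. Chance alone gives about 1 in 20 such groups for normally distributed values in unselected groups. These members were partly chosen by spread or small p, and some values sat at the smallest peak width. The 15 of 134 therefore cannot be set against that rate.

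Among members with their own start in the window, transgenic library 3 had 583 bp at Corin, above the other 3, and control library 3 had 584 bp there, above the other 3 controls at 200 bp each. Transgenic library 1 had the lowest value of its group at Cracr2a, 314 bp. Isg15 reached 767 bp in transgenic library 4, Cxcl10 reached 496 bp in control library 1, and Slc25a48 had only 267 bp in control library 1. Hnrnph1 had its lowest transgenic value, 599 bp, in library 1, and Fam169b its highest control value, 243 bp, in library 2.

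The other such values fell on members whose start lay elsewhere or was not in the promoter table. Transgenic library 3 stood apart at Gm10461 (138 bp), Gm40365 (18 bp, where the other 3 had 17 bp) and Ppp1r37 (670 bp). Transgenic library 1 stood apart at Stx18 (548 bp) and transgenic library 2 at Spag1 (428 bp). Control library 2 stood apart at Olfr18 (294 bp) and at Vmn2r12 (214 bp, where the others had 200 to 202 bp).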

How the results depend on the processing

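No member tested passed an adjusted p of 0.05 under the 24 alternative fits, of which the 1 kb window tested 285 members, the −log10 q threshold of 5 tested 506 and the rest 509; 5 promoters outside the set did so under ordinary variances. The number of members moved with the definition: 207 at a limit of 600 bp, 997 at a limit of 1000 bp and 306 with peaks counted over their whole length. A window of 1 kb to each side gave 725, of which 258 were among the 509. Leaving out 1 library gave 533 to 602 members, the most without transgenic library 1. The median log2 difference over members was -0.17 under quantile normalization, and -0.010 to 0.021 without 1 library. The cause of these shifts was not tested.

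The share of members chosen at the 3′ end was 34.97% at 600 bp, 17.9% with the 1 kb window and 16.9% with whole peaks, and the share with a CpG ratio under 0.4 was 56.3% at 600 bp. These shares, the fits by number of X peaks and the values of named members at stricter peak thresholds were added after the data were seen. Of 134 such covered lengths, 9 moved by more than 1 SD.

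Of the 4 replicate numbers, only number 4 had libraries that deviated together (correlations of -0.0080, -0.00017, -0.11 and 0.32 for numbers 1 to 4), so the numbers were not taken to pair libraries; with a replicate block, 0 members were called and the median log2 difference was 0.0033. Peak lists without reads cannot separate narrow marking from weak signal near the caller's threshold.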
